A study of Homo sapiens with 2 samples.

Results

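The genes described here were 36 of the 36601 genes counted: 14 response genes of hypoxia-inducible factor (HIF), 6 genes of glucose and lactate transport and of glycolytic regulation, and 16 glycolytic enzymes. They were found by gene symbol, and each symbol matched 1 gene. The members were chosen by their measured levels in the same 2 libraries, above all those of otic cells, in which several of them had been seen to be lower with GelNB-CH, so their levels are given as a description with no test.

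Sorted cells of day 40 human inner ear organoids were profiled by droplet-based 3' single-cell RNA sequencing in 1 library labelled GelNB-CH, a hydrogel of modified gelatin set by UV light, and 1 library labelled Matrigel, a basement membrane extract. All organoids came from the human embryonic stem cell line WA25 carrying a SOX2 nuclear tdTomato reporter (cell line SOX2nT), and reporter-positive cells were collected by flow cytometry after 90 min in Accutase. According to growth text that is the same for both libraries, aggregates were treated with FGF-2, SB-431542, BMP-4 and growth factor-reduced Matrigel, then with LDN193189 and the WNT pathway activator CHIR99021, embedded in GelNB-CH with LAP and PEG4SH on day 11 and later exposed to oDex, so the embedding of the Matrigel organoids is not described in the sources used here. The material is 1 reporter line and only cells that pass a SOX2 reporter gate, no label gives replicate cultures, and every interval below is a 95% interval that covers counting error only.

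HIF is a transcription factor made of an oxygen-regulated subunit, HIF1A or EPAS1, and the constant partner ARNT. Prolyl hydroxylases of the EGLN family use oxygen to mark the regulated subunit for destruction through VHL, and when oxygen is low the subunit persists and binds DNA with a core of ACGTG or GCGTG. Its targets include secreted signals such as VEGFA, and enzymes that turn glucose into pyruvate and pyruvate into lactate. Most glycolytic steps are served by isoenzymes from different genes, and only some of these are known HIF targets.

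Promoters of 5 members are shown because they span the pattern reported below: a pair of lactate dehydrogenase genes that differ in their levels, a glycolytic enzyme (PGK1) and HIF response genes with many core matches (BNIP3) or few (CA9). Each is the RefSeq sequence of GRCh38.p14 from 250 bases before to 50 bases after 1 listed start site of the gene. It is written 5' to 3' on the gene's own strand, with matches to ACGTG or GCGTG on either strand in capitals. Only the first listed site of a gene was used, and the annotated gene starts of LDHB (21757857) and PGK1 (77910739) lie outside their windows. The windows are chr11:18394313-18394612 on the plus strand for LDHA, chr12:21657793-21658092 on the minus strand for LDHB, chrX:78103998-78104297 on the plus strand for PGK1, chr10:131981874-131982173 on the minus strand for BNIP3 and chr9:35673678-35673977 on the plus strand for CA9.
LDHA: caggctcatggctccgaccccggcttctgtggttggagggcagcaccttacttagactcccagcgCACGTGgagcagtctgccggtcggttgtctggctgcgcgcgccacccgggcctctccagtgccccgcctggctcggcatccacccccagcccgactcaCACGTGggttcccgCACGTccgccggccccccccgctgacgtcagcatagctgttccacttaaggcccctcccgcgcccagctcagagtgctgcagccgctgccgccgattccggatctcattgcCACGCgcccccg
LDHB: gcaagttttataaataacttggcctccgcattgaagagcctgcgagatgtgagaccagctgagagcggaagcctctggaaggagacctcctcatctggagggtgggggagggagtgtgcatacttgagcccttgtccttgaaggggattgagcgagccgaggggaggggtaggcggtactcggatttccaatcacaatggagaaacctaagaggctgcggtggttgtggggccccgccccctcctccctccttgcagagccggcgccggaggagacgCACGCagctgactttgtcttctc
PGK1: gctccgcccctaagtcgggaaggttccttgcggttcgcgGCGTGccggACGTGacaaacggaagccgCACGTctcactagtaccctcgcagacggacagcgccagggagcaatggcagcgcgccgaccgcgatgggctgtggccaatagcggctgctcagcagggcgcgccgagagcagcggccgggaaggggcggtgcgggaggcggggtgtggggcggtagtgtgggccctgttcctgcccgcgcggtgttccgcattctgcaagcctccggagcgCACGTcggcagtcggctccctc
BNIP3: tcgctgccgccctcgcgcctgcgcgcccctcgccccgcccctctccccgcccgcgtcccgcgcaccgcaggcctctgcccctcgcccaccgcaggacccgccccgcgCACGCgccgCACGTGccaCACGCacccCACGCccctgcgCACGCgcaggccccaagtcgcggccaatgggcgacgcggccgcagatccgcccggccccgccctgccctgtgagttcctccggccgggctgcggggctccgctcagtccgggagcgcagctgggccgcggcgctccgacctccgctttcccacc
CA9: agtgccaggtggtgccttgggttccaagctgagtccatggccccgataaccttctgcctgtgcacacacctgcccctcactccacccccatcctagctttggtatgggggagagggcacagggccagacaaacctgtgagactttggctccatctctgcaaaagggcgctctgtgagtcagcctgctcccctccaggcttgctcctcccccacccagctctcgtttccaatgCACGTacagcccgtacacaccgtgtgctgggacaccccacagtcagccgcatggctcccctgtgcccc
The LDHA window held 6 matches, the LDHB window 1, the PGK1 window 4, the BNIP3 window 6 and the CA9 window 1, where a CACGTG counts once on each strand. A window of this kind was found for 30 of the 36 members, and 22 of these (73.3%) held at least 1 match, against 48.4% of all 27305 promoters of the same length. The share with at least 3 matches was 20.0% of the 30 members and 10.2% of all promoters. By role these were 2 of 9 HIF response genes, 0 of 5 transport and regulator genes and 4 of 16 glycolytic enzymes. With at least 2 matches the shares by role were 22.2%, 0% and 37.5%, against 23.3% of all promoters. The HIF response genes EGLN3 and P4HA2, and SLC16A3, PDK1, HK1, PFKP, TPI1 and PGAM1, were the 8 members with no match in the window. A match is a description of the letters and not a binding site.

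The GelNB-CH library gave 18253 kept cells with a median of 8558 UMIs (unique molecular identifiers, each standing for 1 captured RNA molecule), and the Matrigel library 9800 kept cells with a median of 14001.5. The libraries shared 78 cell barcodes, 63 of them among kept cells. Cells were clustered without the 36 members and named from marker genes, and otic epithelium-like clusters, with 6 to 11 of 16 otic markers, held 6508 GelNB-CH and 2516 Matrigel cells. Clusters 9, 10 and 8 held most of these cells in GelNB-CH, and clusters 16 and 4 in Matrigel. Levels are counts per 1000000 UMIs (CPM), taken over all cells of a kind in a library. A gene was counted as lower or higher when it had at least 10 CPM in the higher library and the libraries differed by at least 1.5-fold.

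In otic epithelium-like cells the 36 genes were lower in GelNB-CH almost throughout, and the difference was larger for HIF response genes and transport genes than for the glycolytic enzymes. Of the 33 members with at least 10 CPM, 19 were counted as lower in GelNB-CH and 0 as higher, against 3.22% of all genes lower and 3.05% higher by the same rule. The contrast chose the members, so nothing is read from this share. By role, 8 of 12 HIF response genes, 6 of 6 transport and regulator genes and 5 of 15 glycolytic enzymes were counted as lower, with median log2 ratios (CPM plus 1) of -0.66, -0.99 and -0.45. The median over all genes tested was -0.03. Just inside the 1.5-fold limit were ENO2 and P4HA2, 1.52-fold and 1.53-fold lower in GelNB-CH, and just outside it were PFKL and LDHA, 1.48-fold and 1.46-fold lower. ADM, ANKRD37 and ALDOC stayed under 10 CPM in both libraries. ADM, a vasodilator peptide, had 38 UMIs in GelNB-CH otic cells and 108 in Matrigel otic cells.

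**Figure D1:**
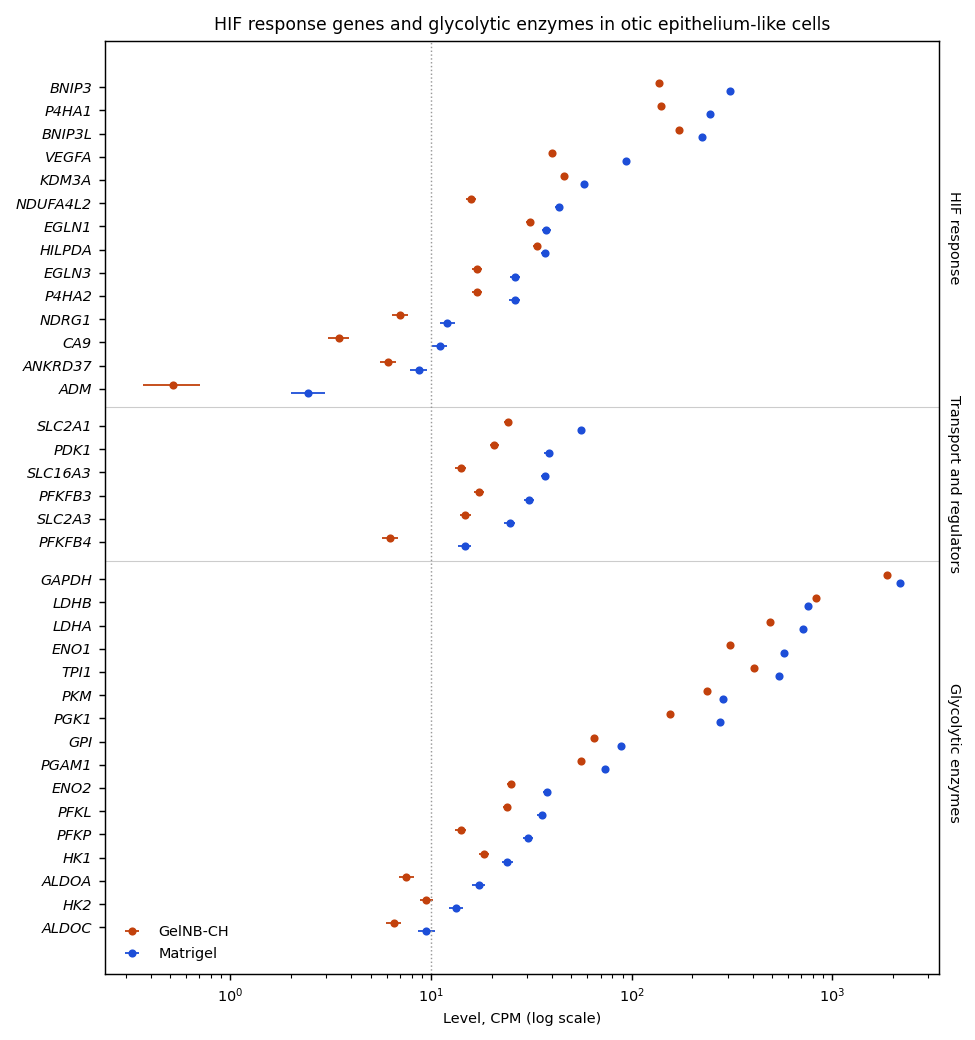
Levels of the 36 genes in otic epithelium-like cells, in CPM on a log scale, for the GelNB-CH library (orange, upper point of each pair) and the Matrigel library (blue). Bars are 95% counting intervals and the dotted line marks 10 CPM. LDHB is the member whose GelNB-CH point lies to the right of its Matrigel point.

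Secreted and cell surface products of the HIF response showed some of the largest gaps. VEGFA, the growth factor that draws blood vessels, stood at 40.0 CPM with GelNB-CH and 94.0 CPM with Matrigel (ratio, GelNB-CH over Matrigel, 0.425, 0.406 to 0.446). CA9, a membrane carbonic anhydrase that regulates pH at the cell surface, stood at 3.46 CPM with GelNB-CH and 11.02 CPM with Matrigel (ratio 0.314, 0.269 to 0.367). Neither interval came near 1. NDUFA4L2, a mitochondrial protein that dampens respiration in low oxygen, stood at 15.9 CPM with GelNB-CH and 43.6 CPM with Matrigel (ratio 0.365, 0.339 to 0.393).

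The mitophagy receptors BNIP3 and BNIP3L, which are close relatives, differed in size of gap. BNIP3 stood at 137 CPM with GelNB-CH and 308 CPM with Matrigel (ratio 0.446, 0.435 to 0.458). BNIP3L stood at 172 CPM with GelNB-CH and 223 CPM with Matrigel (ratio 0.772, 0.752 to 0.793), short of the 1.5-fold limit. The intervals of these ratios did not overlap. The collagen prolyl hydroxylase subunits P4HA1 and P4HA2 were both counted as lower, P4HA1 at 139 CPM with GelNB-CH and 246 CPM with Matrigel (ratio 0.566, 0.551 to 0.582) and P4HA2 at 16.98 CPM with GelNB-CH and 26.1 CPM with Matrigel. NDRG1, a stress-induced gene of growth control, stood at 6.997 CPM with GelNB-CH and 12.1 CPM with Matrigel.

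The oxygen sensors that HIF itself induces were split. EGLN3 stood at 16.9 CPM with GelNB-CH and 26.3 CPM with Matrigel (ratio 0.644, 0.594 to 0.698), and EGLN1 at 30.95 CPM with GelNB-CH and 37.5 CPM with Matrigel (ratio 0.825, 0.774 to 0.879). The histone demethylase KDM3A stood at 46.1 CPM with GelNB-CH and 58.1 CPM with Matrigel (ratio 0.794, 0.754 to 0.836). HILPDA, a lipid droplet protein, had the smallest gap of the HIF response genes, at 33.7 CPM with GelNB-CH and 37.0 CPM with Matrigel (ratio 0.909, 0.854 to 0.969). Its log2 ratio changed sign, to 0.11, when only cells with 8000 to 16000 UMIs were used, and was 0.01 when doublets were kept.

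Genes that move glucose and lactate across the membrane, and those that steer pyruvate, were lower as a set of 6. SLC2A1, the glucose importer GLUT1, stood at 24.1 CPM with GelNB-CH and 56.0 CPM with Matrigel (ratio 0.429, 0.404 to 0.457). SLC16A3, the lactate exporter MCT4, stood at 14.04 CPM with GelNB-CH and 36.9 CPM with Matrigel (ratio 0.380, 0.351 to 0.411). SLC2A3, the high-affinity importer GLUT3, showed a smaller gap, at 14.8 CPM with GelNB-CH and 24.6 CPM with Matrigel (ratio 0.602, 0.553 to 0.656). PDK1, a kinase that keeps pyruvate out of the citric acid cycle, stood at 20.6 CPM with GelNB-CH and 38.5 CPM with Matrigel (ratio 0.537, 0.500 to 0.575). PFKFB3 and PFKFB4, which make the activator of phosphofructokinase, stood at 17.3 and 6.25 CPM with GelNB-CH, against 30.8 and 14.7 CPM with Matrigel. The summed level of the 6 genes was 97.1 CPM with GelNB-CH and 202 CPM with Matrigel.

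The glycolytic enzymes were more even, and the gaps did not follow a single position in the pathway. PFKP, a phosphofructokinase, stood at 14.04 CPM with GelNB-CH and 30.4 CPM with Matrigel (ratio 0.461, 0.425 to 0.501), while its isoenzyme PFKL stood at 24.0 CPM with GelNB-CH and 35.6 CPM with Matrigel (ratio 0.674, 0.629 to 0.722). ENO1, the main enolase, stood at 309 CPM with GelNB-CH and 577 CPM with Matrigel (ratio 0.536, 0.527 to 0.546). PGK1, the first enzyme of the pathway to yield ATP, stood at 155 CPM with GelNB-CH and 275 CPM with Matrigel (ratio 0.563, 0.549 to 0.578). ENO1 and PGK1 differed more between the libraries than TPI1, PGAM1, GAPDH and PKM. TPI1, which interconverts the triose phosphates, stood at 407 CPM with GelNB-CH and 541 CPM with Matrigel (ratio 0.753, 0.740 to 0.766), and PGAM1, a phosphoglycerate mutase, had a ratio of 0.757 (0.723 to 0.793). GAPDH, often used as a loading control, stood at 1866 CPM with GelNB-CH and 2181 CPM with Matrigel (ratio 0.856, 0.849 to 0.863), and PKM, the pyruvate kinase, had a ratio of 0.830 (0.811 to 0.849). The hexokinases HK1 and HK2 and the isomerase GPI had ratios between 0.713 and 0.764. Over all 16 enzymes the summed level was 4520 CPM with GelNB-CH and 5655 CPM with Matrigel (ratio 0.799, 0.795 to 0.803), where the 14 HIF response genes had 666 CPM with GelNB-CH and 1133 CPM with Matrigel (ratio 0.588, 0.581 to 0.596). GAPDH, PGK1, ENO1, LDHA and LDHB have processed pseudogenes, so their levels rest on how the authors' counting treated near-identical copies.

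ALDOA, an aldolase, stood at 7.53 CPM with GelNB-CH and 17.3 CPM with Matrigel (ratio 0.436, 0.390 to 0.487). In the GENCODE v29 annotation 1657 of its 3916 exon bases (42.3%) are also exon bases of AC093512.2, a gene of the same strand, named here because of that overlap. AC093512.2 itself stood at 0.476 CPM with GelNB-CH and 0.610 CPM with Matrigel in otic cells. How the counting treated reads over shared exons was not stated in the sources used here, so the level of ALDOA is uncertain. The other members shared at most 4.73% of their exon bases with another gene of the same strand.

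The lactate dehydrogenase pair differed in direction. LDHA, whose product favours the making of lactate, stood at 487 CPM with GelNB-CH and 713 CPM with Matrigel (ratio 0.683, 0.673 to 0.694). LDHB, whose product favours its use, stood at 833 CPM with GelNB-CH and 753 CPM with Matrigel (ratio 1.11, 1.09 to 1.12), the single member above 1. LDHA therefore made up 36.9% (36.6% to 37.2%) of the UMIs of the pair in GelNB-CH otic cells and 48.6% (48.2% to 49.0%) in Matrigel otic cells. The log2 ratio of LDHB in otic cells stayed between 0.06, with clusters weighted to the same make-up, and 0.23, with TMM scaling. The share of SLC2A3 among the UMIs of the glucose importers went the other way, 38.1% (36.3% to 39.9%) with GelNB-CH and 30.5% (29.01% to 32.1%) with Matrigel.

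**Figure D2:**
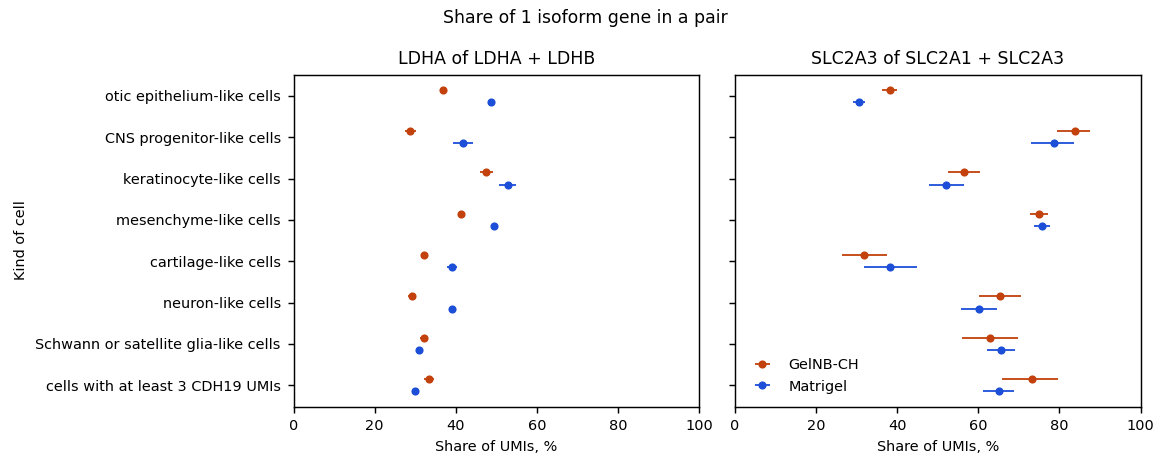
Share of LDHA in the UMIs of LDHA and LDHB (left) and of SLC2A3 in the UMIs of SLC2A1 and SLC2A3 (right), in percent, by kind of cell, for the GelNB-CH library (orange, upper point) and the Matrigel library (blue), with 95% exact binomial intervals. The LDHA share is 36.9% in GelNB-CH and 48.6% in Matrigel otic cells, and 33.3% and 29.9% in cells with at least 3 CDH19 UMIs.

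Genes that build or regulate HIF differed less between the libraries in otic cells. Of 15 genes of the HIF machinery with at least 10 CPM, 0 were counted as lower and 0 as higher, and their median log2 ratio was -0.07. A log2 ratio below 0 was found for 13 of them, and the summed ratio of the list was 0.945 (0.936 to 0.954). HIF1A stood at 110 CPM with GelNB-CH and 118 CPM with Matrigel (ratio 0.934, 0.902 to 0.967), ARNT at 22.5 CPM with GelNB-CH and 23.3 CPM with Matrigel, and EPAS1 at 1.47 CPM with GelNB-CH and 1.83 CPM with Matrigel. The transcript of HIF1A does not report its protein, which is set by degradation. The largest gap of that list was in VHL, at 33.1 CPM with GelNB-CH and 41.6 CPM with Matrigel.

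Of 20 other known HIF targets, 6 were counted as lower in GelNB-CH otic cells and 0 as higher, with a median log2 ratio of -0.40. The largest gaps were in STC2, a secreted glycoprotein (6.73 CPM with GelNB-CH and 20.5 CPM with Matrigel), DDIT4, an inhibitor of mTOR signalling (55.9 CPM with GelNB-CH and 125 CPM with Matrigel), and FAM162A, a mitochondrial protein (119.99 CPM with GelNB-CH and 209 CPM with Matrigel). RORA, a nuclear receptor, stood on the other side, at 193 CPM with GelNB-CH and 170 CPM with Matrigel. Of 21 other genes of glucose metabolism, ENO3 was counted as lower (7.99 CPM with GelNB-CH and 15.2 CPM with Matrigel) and PDK3, another pyruvate dehydrogenase kinase, as higher (86.1 CPM with GelNB-CH and 39.6 CPM with Matrigel). PDK1 and PDK3 thus differed in direction.

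Respiratory chain genes in the nucleus were level between the libraries, with 0 of 26 counted in either direction and a median log2 ratio of -0.01. The 13 mitochondrially encoded genes summed to 19523 CPM with GelNB-CH and 14173 CPM with Matrigel, and 3 of them were counted as higher and MT-ATP8 as lower. ATF4 targets, genes of the amino acid and endoplasmic reticulum stress response, were also lower: 11 of 13, with a median log2 ratio of -1.03. ATF5 stood at 33.9 CPM with GelNB-CH and 119 CPM with Matrigel. Of 10 heat shock genes 3 were counted as higher, HSPA1A at 185 CPM with GelNB-CH and 69.4 CPM with Matrigel. Median depth was 9321 UMIs in GelNB-CH and 14791.5 in Matrigel otic cells. The part of depth, mitochondrial RNA or the stress genes in the levels of the 36 members was not tested further. The closing section gives values at fixed depth and with totals that leave out mitochondrial and ribosomal genes.

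The summed HIF response genes and the summed enzymes were lower with GelNB-CH in each of the 8 otic clusters taken alone. The summed HIF response level in GelNB-CH over that in Matrigel ran from 0.507 in cluster 20 to 0.684 in cluster 3, and for the glycolytic enzymes from 0.747 in cluster 20 to 0.911 in cluster 3. The ratio of BNIP3 ran from 0.386 to 0.532 and that of ENO1 from 0.484 to 0.613 over the 8 clusters. LDHB ran from 0.968 to 1.18. An unnamed cluster led by KRT17, KRT19 and claudin genes (cluster 6, 496 GelNB-CH and 282 Matrigel cells) had the lowest HIF response ratio of the clusters with at least 50 cells in each library, 0.428 (0.414 to 0.442), at 697 CPM with GelNB-CH and 1631 CPM with Matrigel.

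**Figure D3:**
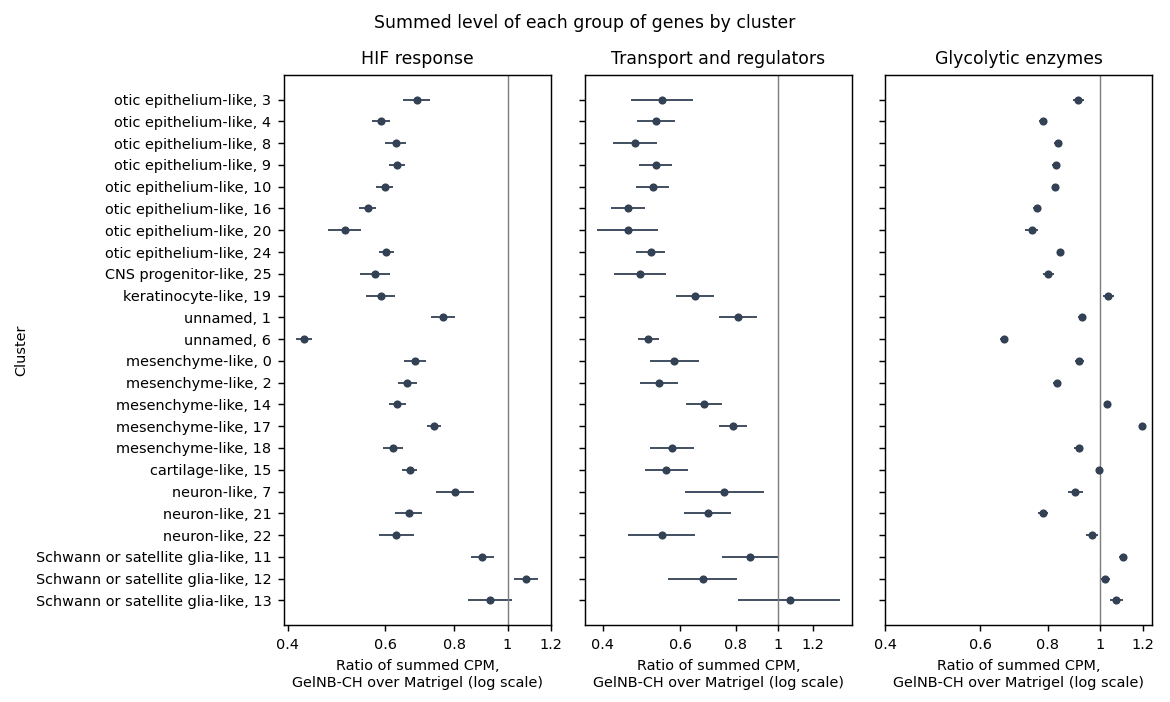
Summed level of the HIF response genes, the transport and regulator genes and the glycolytic enzymes in each cluster with at least 50 cells in each library, as the ratio of GelNB-CH over Matrigel on a log scale with 95% counting intervals. The HIF response ratio lies below 1 in all clusters shown but the glia-like cluster 12, while the glycolytic enzyme ratio lies on both sides of 1.

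Outside the otic epithelium the HIF response genes were again lower with GelNB-CH, while the summed glycolytic enzymes differed by less in mesenchyme-, cartilage- and keratinocyte-like cells taken whole. In mesenchyme-like cells (5468 in GelNB-CH and 2661 in Matrigel) 9 of 31 members were counted as lower, against 4.06% of all genes lower and 2.66% higher. BNIP3 stood there at 77.8 CPM with GelNB-CH and 169 CPM with Matrigel (ratio 0.462, 0.444 to 0.480), and CA9 at 3.99 CPM with GelNB-CH and 14.2 CPM with Matrigel. ALDOA was the single glycolytic enzyme counted as lower, and the 16 enzymes summed to 4150 CPM with GelNB-CH and 4049 CPM with Matrigel (ratio 1.03, 1.02 to 1.03). The mesenchyme-like clusters went opposite ways, with enzyme ratios of 0.831 in cluster 2, 0.912 in cluster 18, 0.915 in cluster 0, 1.03 in cluster 14 and 1.198 in cluster 17, and HIF response ratios of 0.620 to 0.735. PKM stood at 217 CPM with GelNB-CH and 177 CPM with Matrigel (ratio 1.23, 1.19 to 1.26). In cartilage-like cells 9 of 30 members were counted as lower, against 8.08% of all genes lower and 3.51% higher, and CA9 had its largest gap, at 1.43 CPM with GelNB-CH and 14.8 CPM with Matrigel (ratio 0.0962, 0.0571 to 0.155). The enzymes there summed to 4384 CPM with GelNB-CH and 4309 CPM with Matrigel.

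In central nervous system progenitor-like cells (561 in GelNB-CH and 120 in Matrigel) 19 of 31 members were counted as lower, against 11.6% of all genes lower and 5.75% higher, 8 of them glycolytic enzymes. NDUFA4L2 stood at 12.1 CPM with GelNB-CH and 84.4 CPM with Matrigel (ratio 0.143, 0.103 to 0.196), and PGK1 at 129 CPM with GelNB-CH and 268 CPM with Matrigel (ratio 0.479, 0.424 to 0.542). In neuron-like cells 10 of 30 members were counted as lower, against 8.06% of all genes lower and 9.31% higher, among them LDHA at 184 CPM with GelNB-CH and 320 CPM with Matrigel (ratio 0.574, 0.546 to 0.604). Different clusters held most of the neuron-like cells, cluster 7 in GelNB-CH and cluster 21 in Matrigel, and the HIF response ratio was 0.802 (0.741 to 0.869) within cluster 7 and 0.662 (0.626 to 0.700) within cluster 21. The summed enzyme ratio was 0.900 (0.872 to 0.929) within cluster 7, with 3 of 14 enzymes counted as lower, and 0.783 (0.766 to 0.801) within cluster 21, with 6 of 14. Within the third neuron-like cluster, cluster 22, it was 0.965 (0.940 to 0.990), with 6 of 15 counted as lower. Of all genes, 8.79% were counted as lower within cluster 7, 5.67% within cluster 21 and 14% within cluster 22. In keratinocyte-like cells (246 in GelNB-CH and 114 in Matrigel) 13 of 33 members were counted as lower, against 9.73% of all genes lower and 10.7% higher. Their VEGFA stood at 44.5 CPM with GelNB-CH and 109 CPM with Matrigel, and their LDHA at 546 CPM with GelNB-CH and 593 CPM with Matrigel. Over all kept cells 9 of 30 members were counted as lower, against 4.67% of all genes lower and 2.78% higher.

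**Figure D4:**
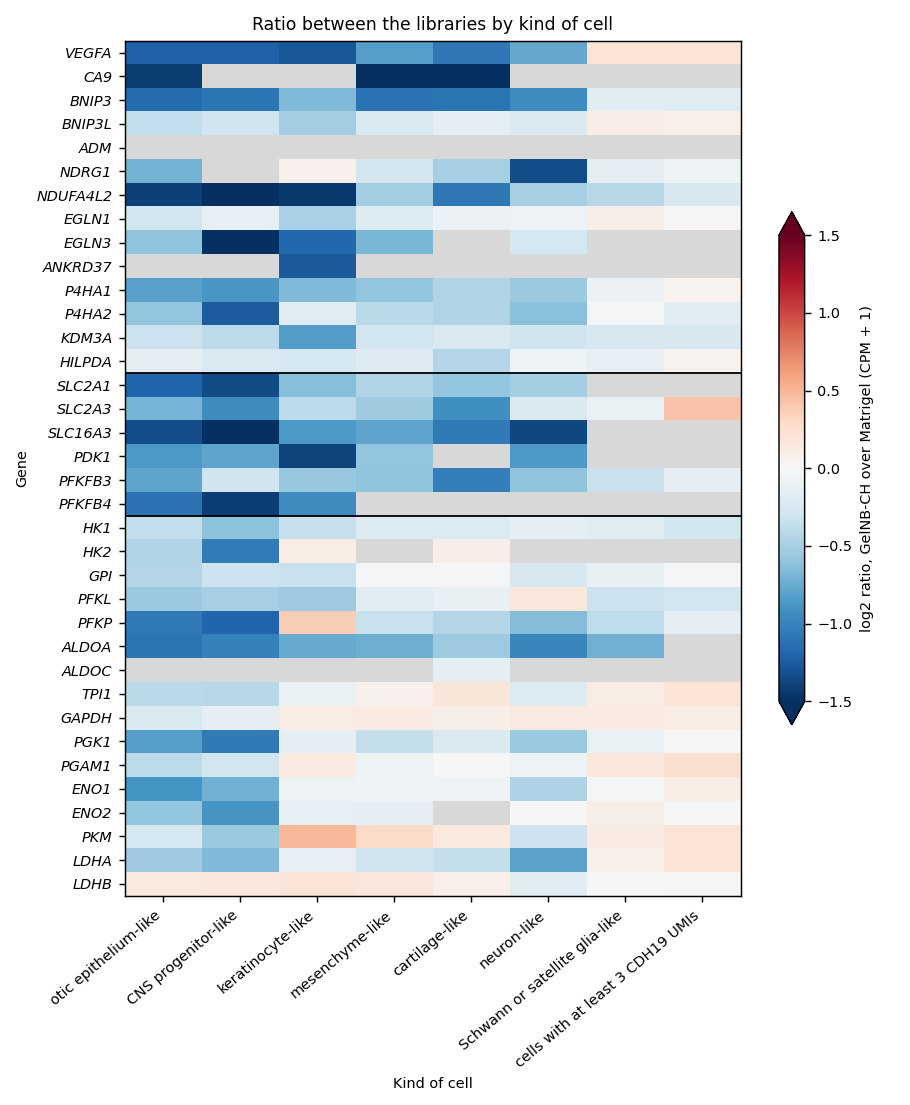
Log2 ratio of GelNB-CH over Matrigel (CPM plus 1) for the 36 genes (down) in 7 named kinds of cell and in cells with at least 3 CDH19 UMIs (across). Blue is lower and red higher in GelNB-CH, and grey marks genes under 10 CPM in both libraries. The 2 columns of glia at the right hold 1 gene counted as lower, ALDOA, against 19 in the otic column.

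In glia the members differed less between the libraries, though not every group was level. Cells with at least 3 UMIs of CDH19, a cadherin of Schwann and satellite glia, numbered 709 in GelNB-CH and 1899 in Matrigel. Of the GelNB-CH cells 643 (90.7%) and of the Matrigel cells 1856 (97.7%) lay in Schwann or satellite glia-like clusters, with 11 of 12 glial markers. Just inside the limit, with 3 CDH19 UMIs, were 205 GelNB-CH and 231 Matrigel cells, and just outside it, with 2, were 271 and 249. In these gated cells 0 of 25 members were counted as lower and 0 as higher, against 4.67% of all genes lower and 3.92% higher, and the median log2 ratio was 0.01. The summed HIF response level was 488 CPM with GelNB-CH and 499 CPM with Matrigel (ratio 0.977, 0.941 to 1.014). VEGFA stood at 18.8 CPM with GelNB-CH and 16.4 CPM with Matrigel (ratio 1.15, 0.941 to 1.40), BNIP3 at 72.45 CPM with GelNB-CH and 82.2 CPM with Matrigel (ratio 0.881, 0.799 to 0.970), and PGK1 at 122 CPM in both (ratio 1.00, 0.931 to 1.08). Their HIF response level was thus under that of otic cells in both libraries, and nearer to the GelNB-CH than the Matrigel otic level. A level under the otic one in both libraries was also found in mesenchyme-, central nervous system progenitor-, keratinocyte- and neuron-like cells. In neuron-like cells it was 440 CPM with GelNB-CH and 627 CPM with Matrigel. Cartilage-like cells of GelNB-CH, at 696 CPM, lay above the otic cells of GelNB-CH, at 666 CPM.

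Several enzymes were slightly higher in the gated glia of GelNB-CH. The 16 enzymes summed to 3804 CPM with GelNB-CH and 3554 CPM with Matrigel (ratio 1.07, 1.06 to 1.08). LDHA stood at 262 CPM with GelNB-CH and 228 CPM with Matrigel (ratio 1.15, 1.09 to 1.21), while LDHB stood at 524 CPM with GelNB-CH and 534 CPM with Matrigel (ratio 0.983, 0.948 to 1.02). The LDHA share of the pair was therefore 33.3% (32.1% to 34.6%) with GelNB-CH and 29.9% (29.3% to 30.5%) with Matrigel, the reverse order of the otic cells. In all cells of the glia-like clusters it was 32.1% (31.1% to 33.2%) with GelNB-CH and 30.9% (30.4% to 31.4%) with Matrigel. Those intervals overlap, so the reverse order is clear in the gated cells only. SLC16A3 and ALDOA remained on the low side, SLC16A3 at 5.65 CPM with GelNB-CH and 9.29 CPM with Matrigel (ratio 0.608, 0.424 to 0.852) and ALDOA at 6.38 CPM with GelNB-CH and 9.68 CPM with Matrigel (ratio 0.659, 0.469 to 0.906). In all cells of the glia-like clusters (1270 in GelNB-CH and 2491 in Matrigel) 1 of 26 members, ALDOA, was counted as lower, against 5.05% of all genes lower and 2.17% higher. The transport and regulator genes summed there to 46.1 CPM with GelNB-CH and 57.8 CPM with Matrigel (ratio 0.797, 0.718 to 0.882). The HIF response ratio was 0.901 (0.859 to 0.944) in cluster 11, which held most Matrigel glia, 1.08 (1.03 to 1.13) in cluster 12, the largest in GelNB-CH, and 0.929 (0.847 to 1.02) in cluster 13.

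Other values also differed between the libraries in the glia. HIF1A was higher in GelNB-CH gated cells, at 71.7 CPM with GelNB-CH and 58.3 CPM with Matrigel (ratio 1.23, 1.11 to 1.36). Of 10 heat shock genes 6 were counted as higher in GelNB-CH, HSPA1A at 282 CPM with GelNB-CH and 54.2 CPM with Matrigel. Their summed ratio was 1.76 in the gated cells, but it was above 1 in every named kind of cell, from 1.26 in otic to 2.22 in neuron-like cells. The gated cells made up 3.88% of GelNB-CH and 19.4% of Matrigel kept cells, and their median depth was 8535 UMIs in GelNB-CH and 14987 in Matrigel. OC90, an otic gene, stood in them at 154 CPM with GelNB-CH and 39.2 CPM with Matrigel, against 4037 CPM with GelNB-CH and 2992 CPM with Matrigel in the otic cells themselves. The part of depth, the size of the gate and carried-over otic RNA in the glial values was not tested.

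Co-variation from cell to cell was read within each library after each cell was thinned to 5000 UMIs. Otic cells with fewer were set aside, 603 of them from GelNB-CH and 167 from Matrigel. In otic cells the summed UMIs of the HIF response genes and of the glycolytic enzymes were correlated, with a Pearson r of 0.37 over 5905 GelNB-CH cells and 0.46 over 2349 Matrigel cells (log scale). The cells of a library share its preparation and depth, and the correlations are descriptions. Neither sum was related to the depth of a cell before thinning (r between -0.05 and 0.08). Within the 8 otic clusters r ran from 0.26 to 0.43 for GelNB-CH cells and from 0.29 to 0.55 for Matrigel cells. The HIF response sum had an r of 0.34 in GelNB-CH and 0.50 in Matrigel with other HIF targets, of -0.02 in GelNB-CH and 0.00 in Matrigel with nuclear respiratory chain genes, and of -0.19 in GelNB-CH and -0.30 in Matrigel with mitochondrially encoded ones.

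LDHA followed the HIF response most closely of the members, each set against the sum of the other HIF response genes, with an r of 0.41 in GelNB-CH and 0.49 in Matrigel otic cells. ENO1 came next in both libraries, at 0.32 in GelNB-CH and 0.46 in Matrigel. PGK1 had an r of 0.27 in GelNB-CH and 0.39 in Matrigel, BNIP3 of 0.26 in GelNB-CH and 0.36 in Matrigel, and TPI1 of 0.28 in GelNB-CH and 0.34 in Matrigel. LDHB had an r of 0.00 in GelNB-CH and -0.04 in Matrigel, although 96.7% of the thinned GelNB-CH cells and 93.1% of the thinned Matrigel cells held a UMI of it. HK1, PFKL, SLC2A3 and the HIF response gene KDM3A had an r of at most 0.05 in both libraries. A UMI of them was held by 4.54% to 22.6% of the thinned cells. The HIF response genes ADM, NDRG1, EGLN1 and HILPDA had an r of 0.02 to 0.04 in GelNB-CH and of 0.07 to 0.10 in Matrigel. CA9, held by 1.61% of GelNB-CH and 5.24% of Matrigel thinned cells, had an r of 0.15 in GelNB-CH and 0.20 in Matrigel. HIF1A itself had an r of 0.00 in GelNB-CH and 0.03 in Matrigel.

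At a given number of HIF response UMIs, the enzyme levels of the libraries lay closer together than over all otic cells. Cells with 0 HIF response UMIs had 3620 CPM of the 16 enzymes in GelNB-CH (3542 to 3699) and 3515 CPM with Matrigel (3332 to 3707). Cells with 5 to 7 had 5517 CPM with GelNB-CH and 5720 CPM with Matrigel, and cells with 8 or more had 7523 CPM with GelNB-CH and 7977 CPM with Matrigel. The libraries differed in how many cells lay at each number. Of the GelNB-CH otic cells 8.18% had 8 or more HIF response UMIs and 7.69% had 0, against 26.3% and 3.32% of the Matrigel otic cells.

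LDHA in cells with 0 HIF response UMIs stood at 252 CPM with GelNB-CH and 208 CPM with Matrigel, and in cells with 8 or more at 1210 CPM with GelNB-CH and 1154 CPM with Matrigel. LDHB did not follow: it stood at 824 CPM with GelNB-CH and 810 CPM with Matrigel at 0, and at 829 CPM with GelNB-CH and 716 CPM with Matrigel at 8 or more. LDHA, with a ratio of 0.683 over all otic cells, was lower with GelNB-CH at every step between the ends of the scale. At both ends its value was slightly higher with GelNB-CH, but the order there was not clear of counting error. ENO1 and SLC2A1 still differed at a given number. In cells with 5 to 7 HIF response UMIs ENO1 stood at 423 CPM with GelNB-CH (406 to 441) and 594 CPM with Matrigel (568 to 621). SLC2A1 stood there at 33.2 CPM with GelNB-CH (28.5 to 38.6) and 52.1 CPM with Matrigel (44.5 to 60.5).

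**Figure D5:**
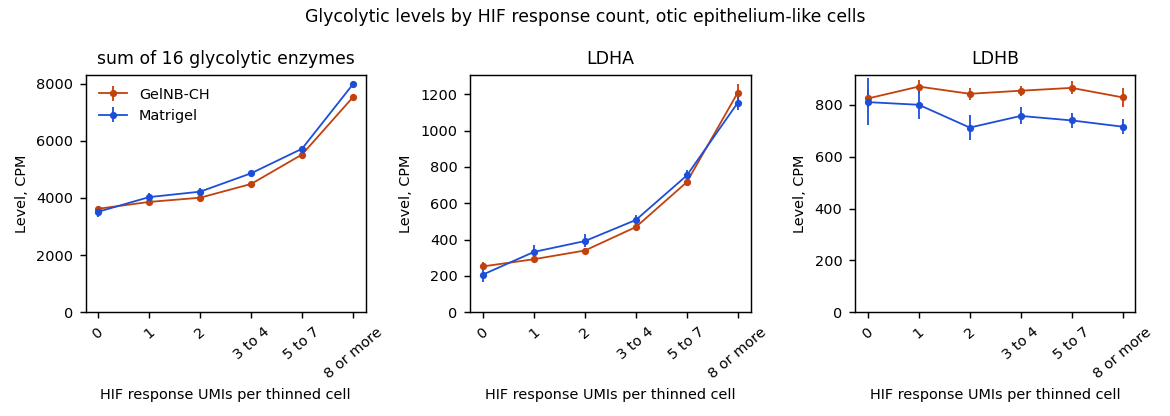
Levels in CPM of the 16 glycolytic enzymes together, of LDHA and of LDHB in otic epithelium-like cells thinned to 5000 UMIs, by the number of HIF response UMIs in the cell, for GelNB-CH (orange) and Matrigel (blue), with 95% counting intervals. The enzyme sum and LDHA climb along the axis in both libraries, LDHA to 1210 CPM with GelNB-CH and 1154 CPM with Matrigel, while LDHB stays between 712 and 870 CPM.

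In the gated glia r was lower, at 0.19 over 658 GelNB-CH and 0.24 over 1838 Matrigel cells. Their mean HIF response UMIs per thinned cell were 2.49 with GelNB-CH and 2.40 with Matrigel, against 3.42 and 5.79 in otic cells. The part of these counts in r was not tested. Few glia were at the high end: 3.04% of GelNB-CH and 3.75% of Matrigel cells had 8 or more HIF response UMIs. Those few had enzyme sums of 8690 CPM with GelNB-CH and 8501 CPM with Matrigel, against 3667 and 3078 CPM in glia with 0. Their LDHA stood at 710 CPM with GelNB-CH (555 to 896) and 910 CPM with Matrigel (812 to 1017). In mesenchyme-like cells r was 0.10 over 4879 GelNB-CH and 0.32 over 2615 Matrigel cells. Their enzyme sum at 0 HIF response UMIs was 3854 CPM with GelNB-CH (3781 to 3928) and 3385 CPM with Matrigel (3262 to 3511). At 8 or more it was 6546 CPM with GelNB-CH and 6481 CPM with Matrigel. The intervals at 0 do not overlap, so enzyme levels closer together at a given number are described for otic cells only. Their LDHA stood at 436 CPM with GelNB-CH (413 to 460) and 537 CPM with Matrigel (510 to 565) in cells with 5 to 7 HIF response UMIs, intervals that do not overlap, and at 883 CPM with GelNB-CH and 884 CPM with Matrigel in cells with 8 or more, which were 3.57% of GelNB-CH and 13.1% of Matrigel cells. In cartilage-like cells r was -0.01 in GelNB-CH and 0.21 in Matrigel.

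Among 6635 genes on no list, IGFBP2, which binds insulin-like growth factors, was the most like the HIF response sum over otic cells, with an r of 0.26 in GelNB-CH and 0.34 in Matrigel. IGFBP2 stood at 562 CPM with GelNB-CH and 823 CPM with Matrigel. The next were C4orf3 (mean r over both libraries 0.16), MALAT1 (0.15), GOLGA8A (0.14), SEC61G, EIF1, KRT19, DARS, FGF11 and SET, the last at 0.10, all with low values beside those of LDHA or ENO1.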

How the data were processed

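The values are UMI counts per gene and cell barcode, deposited by the authors as filtered matrices. Per the file headers they came from Cell Ranger 7.1.0, while the labels' protocols give 4.0.0, a conflict not settled here, and STAR with GRCh38 (hg38) is named per the submitters' processing notes. The annotation version was not stated in the sources used here. How reads over introns, shared exons or near-identical copies were counted can change a level.

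Cells with at least 1000 genes and at most 15% mitochondrial UMIs were kept, and doublets called by Scrublet (0.8% expected per 1000 barcodes) were removed, 14.2% of GelNB-CH and 6.55% of Matrigel barcodes. Cells were clustered with scanpy 1.11.5 and igraph 0.11.9 (2000 variable genes without the 36 members, 30 principal components, 15 neighbours, Leiden resolution 1). A cluster was named when at least 3 markers of a type, and a share of at least 0.3 of its list, were found in at least 10% of cells and at least 2-fold over the median cluster, and no other type had more. Counts were summed per kind of cell and library and divided by the total to give CPM. Log2 ratios used a pseudocount of 1 CPM. Intervals are exact at the 95% level (Poisson for a level, conditional binomial for a ratio, Clopper-Pearson for a share). With 1 library per group no test of the conditions was possible, and no p-value is given.

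For correlations each cell was thinned to 5000 UMIs. The members and all gene lists were chosen with earlier results of these data known. Any member could be named. Of each other list those named came from the 3 highest and the 3 lowest genes by log2 ratio among genes with at least 10 CPM in otic cells, with HIF1A, EPAS1, ARNT, CDH19 and OC90 always open to naming, and of genes on no list the 10 with the highest mean correlation, among genes with at least 20 CPM in both libraries, were named. Alternatives varied cell filters, doublets, clustering, depth, cluster make-up, scaling (TMM of edgeR 4.0.16 in R 4.3.3), the CPM minimum, the fold, the pseudocount and the gate. The computing steps were checked on simulated data. Sums and intervals used scipy 1.17.1 and numpy 2.4.6 under Python 3.11.15, tables used pandas 2.3.3, and scikit-learn 1.9.0 and matplotlib 3.10.9 served clustering and plots.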

Additional observations from a re-analysis of the deposited data

Results flagged for a closer look

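For 7 members the ratio of GelNB-CH over Matrigel lay on opposite sides of 1, with intervals that exclude 1, in cells with at least 3 CDH19 UMIs and in otic epithelium-like cells. The ratio of SLC2A3 was 1.37 in the gated glia and 0.602 in the otic cells. That of PGAM1 was 1.188 in the gated glia and 0.757 in the otic cells, and that of TPI1 was 1.153 and 0.753. PKM had ratios of 1.151 in the gated glia and 0.830 in the otic cells, LDHA 1.15 and 0.683, GAPDH 1.082 and 0.856, and ENO1 1.081 and 0.536. With 1 library per group the difference itself was not tested. The glial ratios are those of the gate and not of the glia-like clusters. SLC2A3 had 128 UMIs in the 709 gated GelNB-CH cells but 126 in all 1270 GelNB-CH cells of those clusters. In Matrigel it had 418 UMIs in the 1899 gated cells and 499 in the 2491 cells of the clusters. Of the 14 glycolytic enzymes with at least 10 CPM in those clusters, 8 had a log2 ratio below 0 and 6 above it. The opposite direction of all 7 members is therefore given for the gated cells only. None of the 7 reached the 1.5-fold limit in the gated glia, and none of the HIF response genes was among them.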

How the results depend on the processing

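Under the alternatives run, no count gained a member higher in GelNB-CH, apart from 1 in the gated glia at a looser fold, and the otic, mesenchyme-like, neuron-like and all-cell medians and both otic correlations kept their sign. The otic count of 19 members lower in GelNB-CH stayed between 15 and 21 under the alternatives that kept the 1.5-fold limit. It was 16 with TMM scaling and 19 among cells with 8000 to 16000 UMIs, of which 18 were among those reported. With totals that leave out mitochondrial and ribosomal genes it was 19, all 19 of them among those reported. The otic median log2 ratio ran from -0.67 to -0.52. At a fold of 2 the count was 9 in otic cells, 2 in mesenchyme-like cells, 3 in neuron-like cells and 2 over all kept cells, and at the looser fold tried it was 15 in mesenchyme-like cells and 18 over all kept cells. With a minimum of 20 CPM it was 5 in mesenchyme-like cells and 6 in neuron-like cells, with a neuron-like median of -0.27. That median was -0.51 with totals that leave out mitochondrial and ribosomal genes. The fewer genes or stricter fold set these counts by construction, and the cause of the others was not tested. The share of all genes under each changed rule is not given here, so nothing is read from these counts beside a background. In the glia the count of 0 was 2 with doublets kept, with totals without mitochondrial and ribosomal genes, with a minimum of 5 CPM and with a gate of at least 1 CDH19 UMI, and 1 in the glia-like clusters, where the median was -0.095. The otic correlation was 0.30 in GelNB-CH and 0.37 in Matrigel with cells thinned to 3000 UMIs, and 0.54 in Matrigel at 10000 UMIs. Depth limits the members with few UMIs, CA9, ADM, ANKRD37 and ALDOC among them. No paired analysis was possible because each group is 1 library.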
